A study of Homo sapiens with 4 samples.

Results

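The Wnt ligands, their Frizzled and LRP receptors and their secreted inhibitors of the SFRP and DKK families were examined in human proximal tubular cells (HPTCs). All probes named for a WNT, FZD, SFRP or DKK gene, for LRP5 or for LRP6 were taken, which gave 39 genes on 45 probes, out of 25992 gene names on 34127 probes. They comprised 19 Wnt ligands, 10 Frizzled receptors, 2 LRP co-receptors, 4 SFRPs and 4 DKKs. Their expression was measured on 4 single-colour Agilent arrays of biological duplicates, as the methods call them. Replicates 1 and 2 of HK-2 are called H1 and H2, and replicates 1 and 2 of RPTEC/TERT1 are called R1 and R2. HK-2 is a proximal tubular cell line immortalised with papillomavirus oncogenes, and RPTEC/TERT1 one made lasting by the catalytic part of telomerase. All 4 cultures were grown to confluence, kept without serum and supplements for 24 h and then exposed for 24 h to IL-1β (10 ng/mL) together with the SGLT2 inhibitor empagliflozin (Empa, 500 nM). Unstimulated cultures and IL-1β without Empa were not analysed here, so no value is an effect of either agent. Each line had been grown in a medium of its own, so line and growth medium cannot be told apart.

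Wnt proteins are lipid-modified secreted ligands that bind a Frizzled receptor at the cell surface, and in the canonical branch they join it to the co-receptor LRP5 or LRP6, after which β-catenin is spared from breakdown and acts with TCF/LEF factors on target genes. SFRPs bind Wnt proteins outside the cell, and DKK1, DKK2 and DKK4 bind the LRP co-receptors instead. In the kidney the pathway is known for the formation of nephrons, in which WNT9B and WNT4 act in turn, and for its renewed activity after tubular injury.

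The arrays did not group by their labels. Over the 16468 genes tested, H1 correlated with R2 at r = 0.983 and H2 with R1 at r = 0.975, while the HK-2 arrays correlated with each other at 0.847 and the RPTEC/TERT1 arrays at 0.833 (correlations across genes, which are not independent replicates). CDKN2A, an inhibitor of the cell cycle, was at 0.29, 4.17, 4.04 and 0.20 on H1, H2, R1 and R2, so it too was alike across the labels, and TERT, the gene that gives RPTEC/TERT1 its name, was at -4.05, -4.36, -3.62 and -4.67, the last not well above background. Whether arrays carry each other's label was not tested and cannot be settled from these files, so HK-2 and RPTEC/TERT1 mean the line as labelled throughout, and each value is given under its array. Between 59.2% and 64.9% of the spots of an array were marked well above background, and no member probe was saturated. A level below is log2 of a gene's signal over the 75th percentile of its array, so that 0 is that percentile, and -5.37 is the floor, under which no order was read.

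Of the 39 members, 18 were well above background on all 4 arrays, 12 on 1 to 3 arrays and 9 on none. Over the 25667 genes with a value on every array, these shares were 53.7% for all 4 arrays and 30.2% for none, against 46.2% and 23.1% of the members. The families differed in how much of each was seen. Of the 10 Frizzled receptors 9 were well above background on every array, as were LRP5 and LRP6, whereas 6 of 19 Wnt ligands and 1 of 8 secreted inhibitors were. The members not well above background anywhere were WNT8A, WNT8B, WNT9A, WNT11, WNT16, SFRP4, SFRP5, DKK2 and DKK4.

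**Figure D1:**
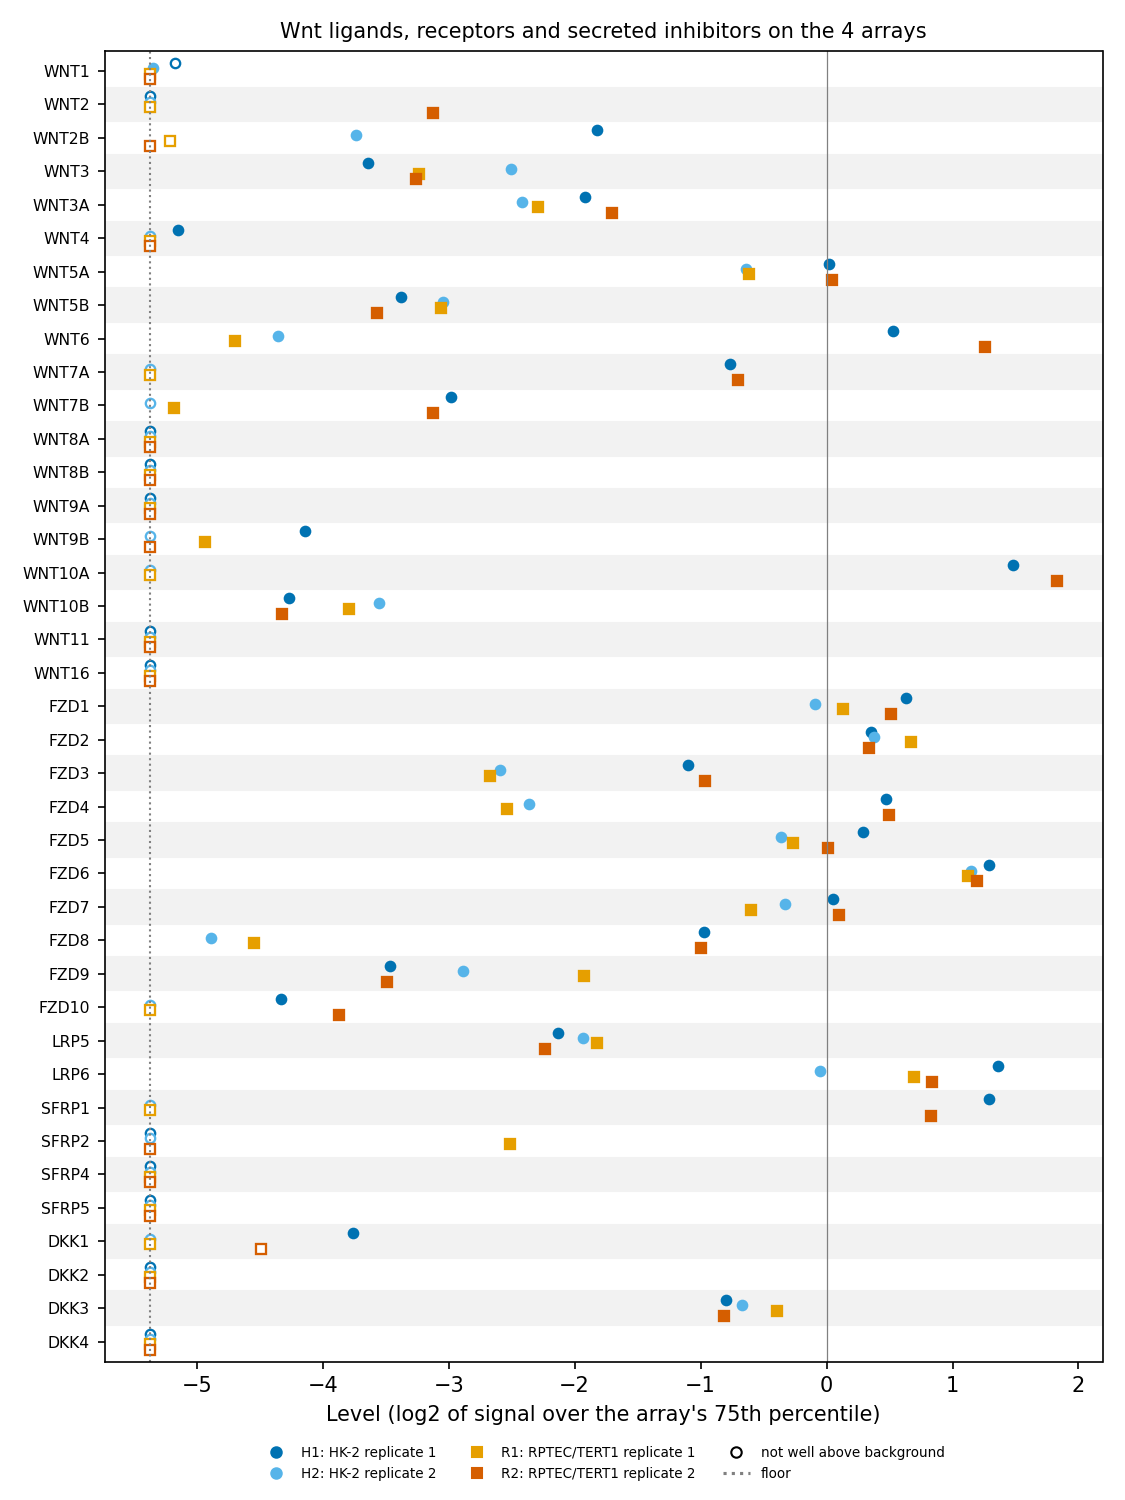
Level of each member on each array (log2 of signal over the array's 75th percentile), circles for HK-2 and squares for RPTEC/TERT1, open where the gene was not well above background and with the floor of -5.37 dotted. WNT6, WNT7A, WNT10A, FZD4, FZD8 and SFRP1 split within both labels, while FZD6 ranged over 0.16 on the 4 arrays.

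The members that set the arrays apart most were Wnt ligands and Frizzled receptors, with the inhibitor SFRP1. The 9 genes FZD3, FZD4, FZD8, FZD10, SFRP1, WNT6, WNT7A, WNT7B and WNT10A were brighter on H1 and on R2 than on either other array by over 1 log2 unit. This held for 7.55% of all 25667 genes and for 23.1% of the members (9 of 39). The opposite placement, H2 and R1 both above the others by as much, held for 7.06% of all genes and for 0 members. Among genes well above background on all 4 arrays, which leaves out those that reach the filter only through the arrays where they are bright, the first placement held for 10.2% of 13778 genes and for 4 of 18 members, and the second for 8.4% and 0 members. WNT7A, WNT10A, FZD10 and SFRP1 were well above background on H1 and R2 and on no other array, which held for 1.75% of all genes, and 0 members were seen on H2 and R1 alone, beside 4.05%. These counts describe 4 arrays and carry no test. In RNA from whole cultures, fewer cells of a kind and less RNA per cell cannot be told apart.

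Upstream sequences of 5 of these 9 genes are shown because these genes were bright and dim on the same arrays, and the stretches let their starts be compared. Each is the 250 bases before the transcription start that RefSeq gives for GRCh38.p14, 5′ to 3′ on the strand of the gene. The sequences lie at chr2:218859555-218859804 on the plus strand (WNT6), chr2:218880602-218880851 on the plus strand (WNT10A), chr3:13880072-13880321 on the minus strand (WNT7A), chr11:86955396-86955645 on the minus strand (FZD4) and chr10:35642297-35642546 on the minus strand (FZD8). Sequences of FZD3, FZD10, SFRP1 and WNT7B are not shown. Capitals mark matches, on either strand, to the GC box GGGCGG or to the NF-kappaB consensus.
WNT6: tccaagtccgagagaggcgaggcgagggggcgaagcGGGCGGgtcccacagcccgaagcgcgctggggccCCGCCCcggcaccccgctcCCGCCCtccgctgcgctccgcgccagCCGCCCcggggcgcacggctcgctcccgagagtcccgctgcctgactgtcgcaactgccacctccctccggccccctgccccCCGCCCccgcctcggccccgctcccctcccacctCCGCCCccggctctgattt
WNT10A: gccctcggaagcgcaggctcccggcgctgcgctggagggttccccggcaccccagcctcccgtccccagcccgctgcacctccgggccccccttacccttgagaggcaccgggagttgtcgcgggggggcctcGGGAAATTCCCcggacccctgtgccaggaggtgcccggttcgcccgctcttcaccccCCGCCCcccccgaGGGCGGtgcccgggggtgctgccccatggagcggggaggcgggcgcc
WNT7A: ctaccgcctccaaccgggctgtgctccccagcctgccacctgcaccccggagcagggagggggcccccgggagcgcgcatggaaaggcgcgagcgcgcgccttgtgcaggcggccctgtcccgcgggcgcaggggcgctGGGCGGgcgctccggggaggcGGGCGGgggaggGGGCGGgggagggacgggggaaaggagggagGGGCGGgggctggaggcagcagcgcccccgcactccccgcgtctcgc
FZD4: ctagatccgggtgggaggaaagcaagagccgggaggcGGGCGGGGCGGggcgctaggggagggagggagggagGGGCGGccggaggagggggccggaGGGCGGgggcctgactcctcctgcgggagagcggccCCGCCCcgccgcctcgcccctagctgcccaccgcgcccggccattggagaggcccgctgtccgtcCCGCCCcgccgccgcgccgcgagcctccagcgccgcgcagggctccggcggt
FZD8: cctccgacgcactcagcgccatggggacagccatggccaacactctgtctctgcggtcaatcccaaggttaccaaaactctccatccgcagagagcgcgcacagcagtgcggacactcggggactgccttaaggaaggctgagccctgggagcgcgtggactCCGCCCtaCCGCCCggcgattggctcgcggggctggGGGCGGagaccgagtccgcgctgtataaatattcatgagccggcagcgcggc

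All 5 stretches were rich in CpG, with 32 in WNT6, 24 in WNT10A, 29 in WNT7A, 33 in FZD4 and 24 in FZD8, against a median of 11 over the 35116 upstream sequences in the table. Of those sequences 76.3% held fewer than WNT10A or FZD8, 85.9% fewer than WNT7A, 90.5% fewer than WNT6 and 91.9% fewer than FZD4. Many other starts were thus as rich. The GC box was matched 6 times in WNT6, 2 times in WNT10A, 4 times in WNT7A, 6 times in FZD4, where a pair of matches overlap, and 3 times in FZD8, and 42.6% of all upstream sequences held at least 1 match. The NF-kappaB consensus, the kind of site that IL-1β signalling is known to use, matched in WNT10A alone, where the 2 matches are overlapping readings of the same letters on both strands, and 5.21% of all upstream sequences held it. The TCF/LEF letters CTTTGAA and CTTTGAT, read on both strands, matched in none of the 5 and in 5.94% of all, and the AP-1 letters TGACTCA and TGAGTCA in none of the 5 and in 4.2% of all. A match or its lack describes the letters of these windows only.

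Among the ligands, WNT10A, known from the growth of teeth, hair and skin, had the widest range. Its level was 1.48 on H1, at the floor on H2 and on R1, and 1.83 on R2. The bright arrays were thus 1 of each label, and the labels overlapped. The probe was printed in 10 spots per array, which gave an SD between spots of 0.095 and 0.070 on the bright arrays, and 0 spots were well above background on the other arrays, after 2 outlier spots of R1 were left out. The signal was at least 116-fold higher on H1 than on H2 and at least 147-fold higher on R2 than on R1, bounds taken against the floor of the dim array.

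WNT6, a ligand of epithelia, is the neighbour of WNT10A on chromosome 2, where their probes lie 19.5 kb apart (GRCh37, WNT6 at 219738852 to 219738911 and WNT10A at 219758393 to 219758452). It was measured on all 4 arrays, at 0.53 on H1, -4.35 on H2, -4.69 on R1 and 1.26 on R2. The same arrays were bright as for WNT10A, with a difference of 29.5-fold within HK-2 and 61.9-fold within RPTEC/TERT1. The probes of WNT1 and WNT10B lie 16.8 kb apart on chromosome 12 and those of WNT3 and WNT9B 111 kb apart on chromosome 17, but WNT1 lay next to the floor, and WNT3 and WNT9B were brightest on different arrays.

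WNT7A, a ligand known from the patterning of limbs, was at -0.77 on H1, at the floor on H2 and R1, and at -0.70 on R2. It was at least 24.3-fold higher on H1 than on H2 and at least 25.4-fold higher on R2 than on R1. WNT7B, known for its part in the renal medulla, was read by 3 probes that disagreed. The probe at 46318943 to 46319002 of chromosome 22 gave -0.04 on H1 and 0.19 on R2 and the floor on the other arrays. The probe at 46316654 to 46316713 gave -3.52 and -4.18 on those arrays and the floor on the others, and the probe at 46372571 to 46372630 was well above background on R1 alone, at -4.80. The first and second probe thus placed the arrays as WNT7A did, and the third did not. Their mean was -2.98, -5.37, -5.18 and -3.12 on H1, H2, R1 and R2.

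Of the 25 members well above background on at least 2 arrays, WNT2B was the only 1 for which both arrays of a label lay above both of the other label. Its level was -1.83 on H1 and -3.74 on H2, while it was not well above background on R1 (-5.21) or R2 (-5.37). The HK-2 arrays themselves differed 3.76-fold. WNT9B, an inducer of nephrons, was well above background on H1 (-4.14) and R1 (-4.93) and at the floor on the other arrays. That placement follows neither the labels nor the pattern of WNT10A, but it rests on a value near the floor. On R1 the signal of the single spot before scaling was 16.0, beside 14.0 on H2.

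Other ligands were seen on 1 array only. WNT2, known from the lung, was well above background on R2 at -3.13 and at the floor elsewhere, at least 4.73-fold higher there than on the array of the same label. WNT4, which acts after WNT9B in the nephron, was well above background on H1 at -5.15, and WNT1, a ligand of the developing midbrain, on H2 at -5.35, both next to the floor, so that nothing is read from their order. WNT3 was measured on all 4 arrays, at -3.64 and -2.51 on H1 and H2, and at -3.24 and -3.26 on R1 and R2. Its range of 1.14 came from HK-2, where H2 was 2.20-fold brighter, and it was 1.02-fold within RPTEC/TERT1.

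The remaining ligands, WNT3A, WNT5A, WNT5B and WNT10B, were measured on all 4 arrays with ranges under 1 log2 unit. WNT5A, the best known ligand of the branch without β-catenin, was at 0.02 on H1, -0.64 on H2, -0.62 on R1 and 0.05 on R2. It placed the arrays as WNT6 did, over a range of 0.68. WNT3A, a canonical ligand, ran from -2.41 on H2 to -1.70 on R2 by the probe that was used. Another probe for WNT3A was well above background on no array and was left out, so the probes disagreed. WNT5B ran from -3.57 to -3.05 and WNT10B from -4.32 to -3.55, and for both the lowest level was that of R2 and the highest that of H2.

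Among the Frizzled receptors, FZD8 and FZD4 differed most within the labels. FZD8 was at -0.97 on H1, -4.89 on H2, -4.54 on R1 and -1.0 on R2, a difference of 15.1-fold within HK-2 and 11.7-fold within RPTEC/TERT1. FZD4, also the receptor of the non-Wnt ligand norrin, was at 0.47, -2.36, -2.54 and 0.50 on the arrays in that order, 7.13-fold apart within HK-2 and 8.18-fold within RPTEC/TERT1. Both receptors were bright on the arrays where WNT6 and WNT10A were bright. FZD3, known from axon guidance and planar cell polarity, was at -1.10, -2.59, -2.67 and -0.96, with folds of 2.82 and 3.26. FZD10 was at -4.33 on H1 and -3.87 on R2 and at the floor on the other arrays, at least 2.06-fold and at least 2.84-fold lower there than on the array of the same label.

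FZD9 had the opposite order. Its level was -3.46 on H1, -2.88 on H2, -1.93 on R1 and -3.49 on R2, so H2 was 1.49-fold and R1 2.95-fold brighter than the array of the same label. FZD1, FZD2, FZD5, FZD6 and FZD7 ranged by less than 1 log2 unit. FZD6, a receptor that acts in planar cell polarity, was at 1.29, 1.15, 1.12 and 1.20 on H1, H2, R1 and R2. FZD5, printed in 10 spots, was at 0.29, -0.36, -0.27 and 0.01, with an SD between spots from 0.087 to 0.14. FZD1 ran from -0.09 to 0.63, FZD7 from -0.60 to 0.10 and FZD2, which like FZD9 was higher on H2 than on H1 and on R1 than on R2, from 0.34 to 0.67.

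The co-receptors were measured on every array. LRP6 was at 1.36 on H1, -0.05 on H2, 0.69 on R1 and 0.84 on R2. The HK-2 arrays held the highest and the lowest level, 2.67-fold apart, with the RPTEC/TERT1 arrays between them and 1.11-fold apart. LRP5, its paralogue, ranged from -2.24 on R2 to -1.82 on R1.

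Of the secreted inhibitors, SFRP1, which binds Wnt proteins, separated the arrays as WNT10A did. Its level was 1.29 on H1, at the floor on H2 and R1, and 0.83 on R2. On the bright arrays the SD between its spots was 0.068 and 0.085, and none of its spots was well above background on the dim arrays. This made it at least 101-fold higher on H1 than on H2 and at least 73.7-fold higher on R2 than on R1. SFRP2 was well above background on R1 alone, at -2.51 in a single spot, at least 7.26-fold higher than on the array of the same label.

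DKK1, which blocks LRP6, was well above background on H1 alone, at -3.76, at least 3.06-fold higher than on H2. Its level on R2 was -4.49 and not well above background. DKK3, which unlike its relatives is not an established blocker of the LRP co-receptors, was the inhibitor measured on every array. Its probe at 11984915 to 11984974 of chromosome 11 gave 1.36, 1.61, 1.69 and 1.23 on H1, H2, R1 and R2. The probe at 11986163 to 11986222 gave -2.96, -2.94, -2.49 and -2.87, and on both probes R1 was the brightest array.

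Over the 25 members well above background on at least 2 arrays, the median absolute difference was 0.13 between H1 and R2 and 0.19 between H2 and R1. It was 1.04 between the HK-2 arrays and 0.59 between the RPTEC/TERT1 arrays. Over all 16468 genes the same medians were 0.22, 0.30, 0.67 and 0.79. After normexp background correction H1 and R2 differed over the members by a median of 0.70, more than the 0.47 between the RPTEC/TERT1 arrays, so the order of these pairs rests on that choice. A range over the 4 arrays above 1 log2 unit was seen in 14 of the 25 members (56%), beside 52.9% of all genes tested. Without H1 it was seen in 6 members of a smaller set. WNT2B, WNT7A, WNT9B, WNT10A, FZD10 and SFRP1 then failed the filter on low signals. Of the 18 members well above background on every array 7 had such a range (38.9%), beside 48.2% of all such genes.

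**Figure D2:**
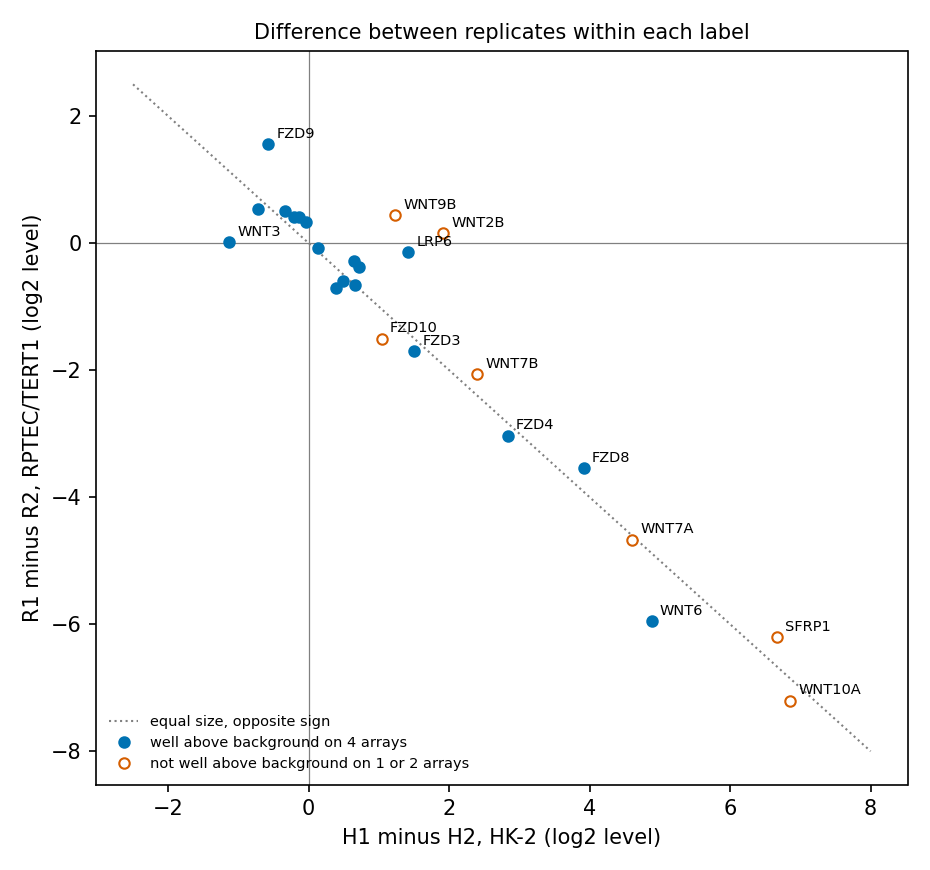
Difference between the replicates (log2 level) for the 25 members tested, within HK-2 on the x axis and within RPTEC/TERT1 on the y axis. Points are open where a gene was not well above background on 1 or 2 arrays. A difference with 1 such array is a bound set by the floor. With 2 such arrays, as for WNT2B within RPTEC/TERT1, it is not read. WNT10A, SFRP1, WNT6, WNT7A, FZD8 and FZD4 lie far down the dotted line of equal size and opposite sign, while WNT2B, WNT9B and LRP6 lie off it.

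When HK-2 was compared with RPTEC/TERT1 as labelled, the members did not separate the lines. Of the 25 members, 10 were higher and 15 lower in HK-2, with a median difference of -0.02 on the log2 scale beside 0.02 over all genes. With limma and Benjamini-Hochberg adjustment over all genes tested, 0 of 16468 genes (0%) and 0 members passed at 0.05, and every adjusted p was 1. At an unadjusted p under 0.05 there were 23 genes (0.14%), among them 1 member, WNT2B. Its mean level was -2.78 in HK-2 and -5.29 in RPTEC/TERT1, a difference of 2.51 (SE 0.78, limma unadjusted p = 0.029, adjusted p = 1). It was not well above background in RPTEC/TERT1, so on these values alone it was at least 5.71-fold higher in HK-2. From the log2 values that the authors deposited this difference was 1.04 (limma unadjusted p = 0.21), after normexp background correction it was 1.36 (limma unadjusted p = 0.19), and with no filter on dim probes the limma unadjusted p was 0.086. WNT2B reached the filter on low signals through the HK-2 arrays alone, where it was bright, so its p lends no support to a difference. Without either HK-2 array it failed that filter and could not be tested.

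Both HK-2 arrays lay above both RPTEC/TERT1 arrays in 1 of 25 members, beside 4.36% of all genes tested, and the reverse was seen in 0 members, beside 2.81%. A separation by over 1 log2 unit was reached by WNT2B in the first direction, beside 0.0486% of all genes, and by 0 members in the second, beside 0.0911%. WNT2B was tested only through the label where it was bright, so these shares lend it no weight. H1 was scanned on the same date as R1, and H2 as R2. Within these dates WNT2B was higher in HK-2 by at least 3.39 (H1 minus R1) and at least 1.64 (H2 minus R2) on the log2 scale. Both are bounds, as it was not well above background on R1 or R2. It was 1 of 25 members with a difference of the same sign within both dates, beside 14.2% of all genes tested. The test was limited by the differences within the labels. The standard error of the difference had a median of 0.61 over the members, and it was 3.43 for WNT10A, 3.14 for SFRP1 and 2.67 for WNT6, so that changes of many-fold between the lines in these genes could not have been detected.

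**Figure D3:**
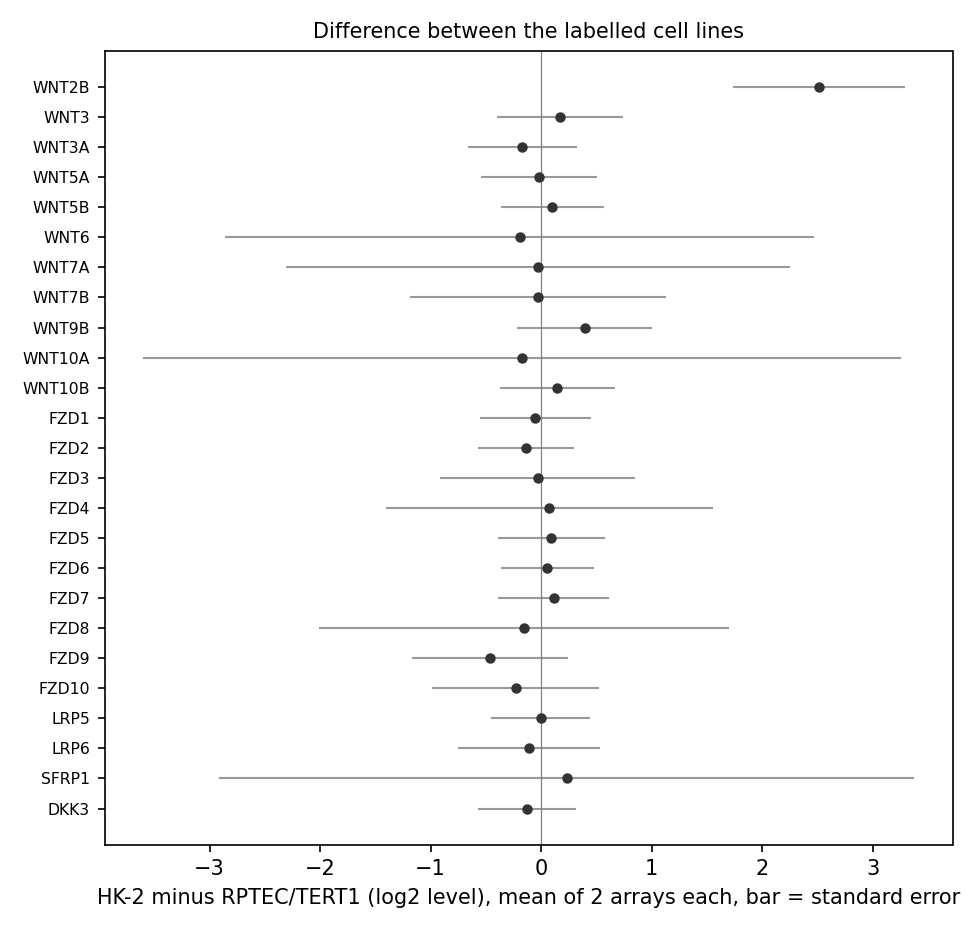
Difference of the mean log2 level between HK-2 and RPTEC/TERT1 as labelled (n = 2, each) for the 25 members tested, with its standard error from limma. WNT2B lies at 2.51, the other members lie near 0, and the widest bars are those of WNT10A, SFRP1, WNT6 and WNT7A.

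The rest of the pathway was followed in 48 further genes, from the secretion of Wnt proteins to their targets. Of these, 34 were tested between the labelled lines and 0 passed (limma, adjusted p = 1 for each), with 18 higher and 16 lower in HK-2 and a median difference of 0.01. H1 and R2 lay above the other arrays by over 1 log2 unit in 7 of the 34, beside 11.7% of all genes tested, and the opposite placement was seen in 5, beside 11%. Some of these genes reached the filter only through the arrays where they were bright. Among genes well above background on all 4 arrays, the first placement held for 4 of 29, beside 10.2%, and the second for 3, beside 8.4%.

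Of the genes for Wnt secretion, PORCN, which attaches the lipid, was at 1.51, 0.73, 0.03 and 1.93 on H1, H2, R1 and R2. WLS, which carries the lipid-modified ligand to the surface, was at -3.73, -1.64, -2.08 and -3.47, brighter on the arrays where PORCN was dimmer. RNF43, a ubiquitin ligase that removes Frizzled receptors, was at 0.80, -0.44, -0.68 and 0.55, and its paralogue ZNRF3 at 0.33, 0.08, 0.12 and 0.26. The R-spondin receptor LGR4 was at 3.04, 0.26 and 0.52 on H1, H2 and R1 and had no value on R2, where its spot was an outlier. LGR5, ROR2, NKD1 and NOTUM were not well above background on any array.

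The co-receptor ROR1, which binds WNT5A, was at -1.58, -1.40, -1.0 and -2.19, and RYK, another Wnt receptor, had a value on R1 alone, at 2.98. KREMEN1, which works with DKK1, was at -2.58, -2.38, -2.66 and -2.45. For ROR1 and KREMEN1 the labels overlapped. ROR1 was higher on H2 and R1 than on H1 and R2, the reverse of FZD4 and FZD8, though -1.40 on H2 and -1.58 on H1 were close. KREMEN1 showed neither order. Other genes of these kinds, chosen after their values were seen, split by over 1 log2 unit. The co-receptor PTK7, at -1.39, -4.67, -4.55 and -2.01, was bright on H1 and R2. So was the extracellular inhibitor SOSTDC1, at -1.75 on H1, -1.68 on R2 and the floor elsewhere. KREMEN2 was the reverse, at -2.40, -0.01, -0.49 and -1.52.

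The effectors and targets were bright on different arrays. CTNNB1, which encodes β-catenin, was at 0.11, 0.22, 0.84 and 0.17, a range under 1 log2 unit. Of its nuclear partners, LEF1 was at -1.35, -2.52, -2.93 and -0.93, and TCF7L1 at -2.87 on H1, -2.29 on R2 and the floor on the other arrays. TCF7 was the reverse, at -3.47 on H2, -3.66 on R1 and the floor on the other arrays, whereas TCF7L2 stayed between -3.94 and -3.43. AXIN2, the target most used as a readout of β-catenin, was at -3.03 on H1 and -3.05 on R2 and at the floor elsewhere, at least 5.08-fold and at least 5.01-fold lower there. SP5, another direct target, was the reverse, at -2.79, -1.77, -1.45 and -2.52. Of the 8 targets listed, 2 were brighter by over 1 log2 unit on H1 and R2 (AXIN2 and CD44), 2 on H2 and R1 (MYC and NKD2), SP5 and CCND1 on neither pair, and NKD1 and TNFRSF19 were not well above background on any array. CD44, MYC and NKD2 were chosen after their values were seen. CD44 was at 6.78, 4.96, 4.99 and 6.91, MYC at 1.19, 3.41, 3.48 and 0.99, and NKD2 at the floor on H1 and R2 and at -1.53 and -1.96 on H2 and R1.

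**Figure D4:**
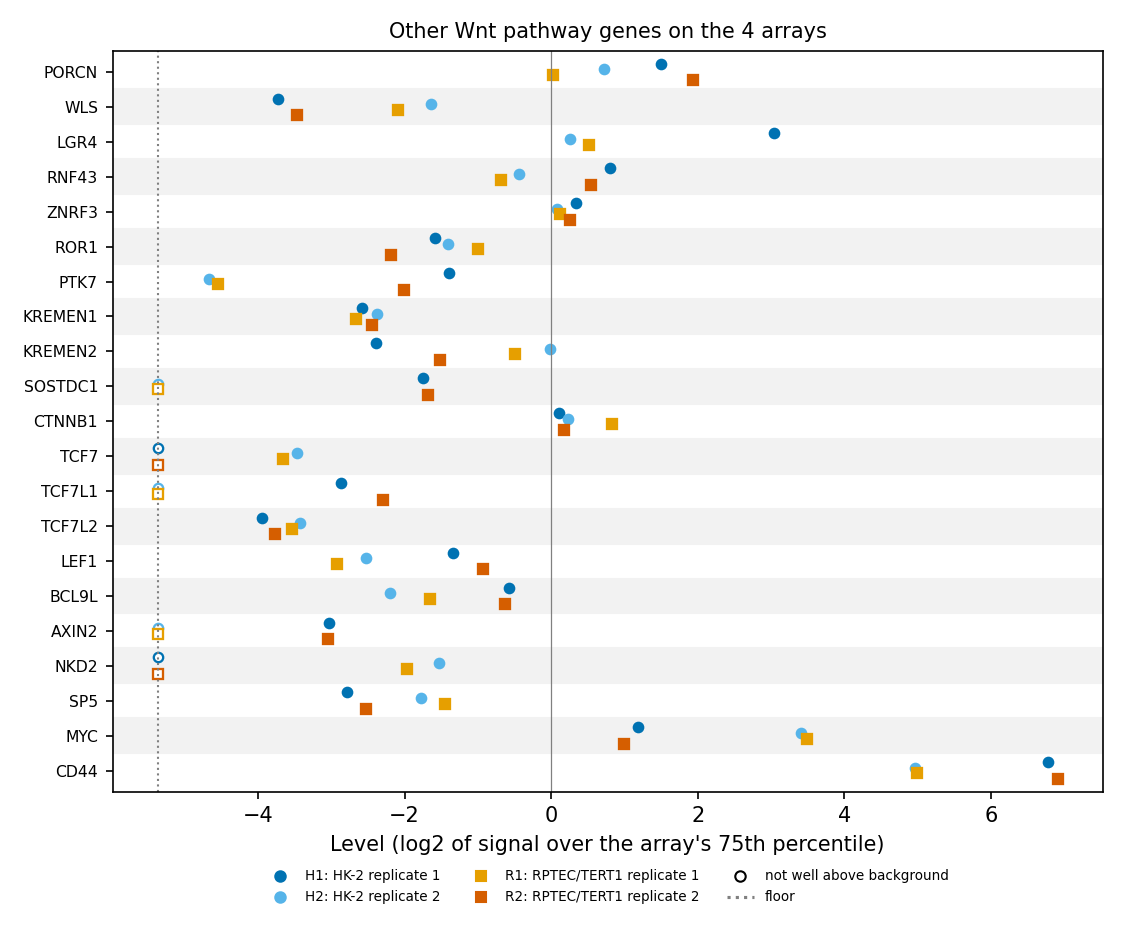
Level of 21 other pathway genes on each array (log2 of signal over the array's 75th percentile), circles for HK-2 and squares for RPTEC/TERT1, open where not well above background and with the floor of -5.37 dotted. AXIN2, TCF7L1 and LEF1 were bright on H1 and R2, while MYC, NKD2, TCF7 and SP5 were bright on the other arrays.

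Summed levels of the marker lists, apart from the endothelial list, moved with the split of WNT10A, WNT6, SFRP1 and FZD8, up or down. Single markers did not all follow the sum of their list. Of 9 proximal tubule markers 6, 6, 4 and 6 were well above background on H1, H2, R1 and R2, with a summed linear level of 19.7, 4.30, 8.03 and 15.6 times the 75th percentile. PAX8, at 4.13, 1.61, 2.79 and 3.73, made up most of that sum on every array. LRP2, at -3.34, -1.72, -2.77 and -3.06, and GGT1, at -0.88, -0.56, -0.35 and -0.65, were instead higher on H2 than on H1 and on R1 than on R2. ANPEP was seen on H1 and R2 only, and CUBN and HNF4A, both defining of the segment, on no array. The 6 proliferation markers summed to 1.40, 34.0, 35.0 and 1.37, so they were high on the arrays where those 4 members were low. Of 7 fibroblast markers DCN and LUM were seen on H2 and R1 alone, with sums over the list of 0.186, 1.97, 1.5 and 0.178, while COL1A2, COL3A1, PDGFRA and PDGFRB were not well above background on any array. The 4 epithelial markers summed to 25.1, 16.6, 12.1 and 28.0, with CDH1 not well above background on H2 or R1. The 5 endothelial markers summed to 0.419, 0.291, 0.220 and 0.278, the 4 leukocyte markers to 0.936, 1.42, 1.87 and 0.876, and the 6 markers of other nephron segments to 1.43, 0.366, 0.438 and 1.37. The part of these differences in the members' levels was not tested.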

How the data were processed

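RNA of 4 HPTC cultures was hybridised to single-colour Agilent arrays. For each array the authors deposited spot intensities from Agilent Feature Extraction 9.5.3.1, whose processed signal is background-subtracted, detrended and not scaled between arrays. A table of log2 values, which the authors deposited beside the scanner output, served as an alternative; how it was made is not stated in the labels or methods. The labels name the RNeasy kit for RNA isolation and the methods the innuPREP kit.

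Control spots and spots marked as outliers (1.24% to 1.85% per array) were left out. Each array was scaled to its 75th percentile of processed signal (signals of 393 on H1, 748 on H2, 488 on R1 and 429 on R2). Values were floored at 0.0242 of it and log2 was taken. The floor is the dimmest scaled signal still marked well above background, from the array where that was highest. For a probe to count as well above background, most of its spots had to be, and probes seen on at least 1 array were averaged into the gene. Of the members 34 had 1 probe, 4 had 2 and 1 had 3. Where a gene was not well above background on an array, folds are bounds against the higher of the floor and its own level. The number of arrays limits the precision.

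Labelled lines were compared with limma 3.58.1 (lmFit and eBayes, R 4.3.3) on 16468 genes seen above background on 2 arrays or more, with Benjamini-Hochberg adjustment at 0.05. The code of the fit was checked on simulated data with independent noise, smaller than the spread of many genes here. That check says nothing of the power of the test on these arrays. Probe positions are those of the files (GRCh37); transcripts of 44 of the 45 member probes were in the RefSeq table of GRCh38.p14, all under the same symbol, and 26 members had an upstream sequence there.

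All members were named, with a level on each array for those well above background on 1 to 3 arrays or with a range over 1 log2 unit, and for a few others. Other pathway genes were named from a list of secretion, receptor, effector and target genes, and PTK7, KREMEN2, SOSTDC1, BCL9L, NKD2, MYC and CD44 were added to text or plots after their values were seen. A proximal tubule marker is not reported here. The members, the lists and the tests were chosen with earlier results of these data known. The arrays of a replicate number share a scan date across the labels, but their deviations from the label means correlated at -0.810 over 16468 genes, so the numbers were not taken to pair them. Alternatives changed the background correction, normalization, source of values, filter on dim probes, choice of probe, outlier spots, variance prior, replicate block and each array in turn.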

Additional observations from a re-analysis of the deposited data

How the results depend on the processing

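No gene passed between the labelled lines under any alternative, for all genes, for the members or for the other pathway genes (limma, 0 with the replicate number as a block and 0 without each array in turn). With the replicate block 5 genes had an unadjusted p under 0.05, and with the crossed pairing, added after seeing the data, 183 did and 0 were called. Leaving out each array in turn gave 18 to 19 members well above background on every array, a median level of -3.09 to -2.07, and 6 to 12 members with a range over 1 log2 unit, the lowest without H1. Fewer members passed the filter on low signals without H1, so that count comes from a smaller set. When restricted to genes seen above background on every array, 7 members had such a range, 4 were bright on H1 and R2, and the median absolute difference between the HK-2 arrays was 0.65. With normexp the median absolute difference of H1 was 1.97 to H2, 1.91 to R1 and 0.70 to R2, the last above the 0.47 between R1 and R2. With the authors' log2 values it was 1.22 from H1 to R1, 0.38 from H1 to R2 and 0.50 from H2 to R2. With no filter on dim probes it was 0.39 between the HK-2 arrays, 0.024 from H2 to R1 and 0.43 from H2 to R2, and with the brightest probe of each gene it was 0.12 from H2 to R1. The cause of these shifts was not tested. The members bright by over 1 log2 unit on H1 and R2 numbered 8 with normexp, with quantile normalization and with the authors' values, and 9 under the other alternatives that kept all tested genes. Below the floor of -5.37 no difference could be read, which limits the 9 members seen on no array and every bound.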
